A study of Homo sapiens with 24 samples.

Results

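Cells given the JAK inhibitor INC424 for 4 h were compared with cells given its vehicle, DMSO, for 4 h. SET2, a human megakaryoblastic line established from a myeloproliferative neoplasm, needs JAK2 signalling to grow. The comparison took the 6 libraries whose labels name drug or vehicle and 4 h, 3 of each, out of 24 libraries in 8 groups. The other groups were untreated naive cells, naive cells given INC424 for 48 h, and persistent lines grown in BMS911543, CYT387, INC424 or SAR302503, and they are used here only to set levels beside those at 4 h. INC424 is ruxolitinib, which competes with ATP at the active kinase domain of JAK1 and JAK2. Both groups compared were of naive cells in RPMI1640 with 20% FCS, all of 1 cell line. The labels give no dose and no dose of vehicle, and do not say how long the naive cells had been in their medium or whether each replicate came from its own culture. The p-values therefore reflect the spread between these libraries, which may be technical.

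JAK2 sits on cytokine receptors such as EPOR, the erythropoietin receptor. When active it phosphorylates STAT5 and STAT3, which enter the nucleus, and it feeds the RAS-ERK and PI3K-AKT pathways through the same receptors. STATs switch on genes that damp the signal again (the SOCS family and CISH) and genes that keep cells alive (PIM kinases, BCL2L1, MCL1). ERK switches on its own phosphatases (DUSP5, DUSP6) and immediate early transcription factors (EGR1, FOS). AKT keeps FOXO factors out of the nucleus, so genes that FOXO switches on are low while AKT is active.

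Reads on genes numbered 26957952 to 33566077 in the 6 libraries. Below, levels are normalised read counts by library, in the order of the replicate numbers, or mean ± SD (n = 3). Changes are fitted log2 differences of INC424 minus DMSO on the scale of log2(count + 1), which understates the change of low genes, with their standard error (SE). Adjusted p-values come from limma with Benjamini-Hochberg adjustment over all 17405 genes tested. A gene rose or fell where its adjusted p was under 0.05. The labels mark INC424 libraries 1 and 2 and DMSO libraries 2 and 3 as run again. The 319 called genes of the lists had their direction both among those libraries and between the other pair, which is no independent check, since they were called on these libraries.

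A DMSO library stood apart in markers of another cell type. The 10 squamous epithelium markers summed to 1995 in DMSO library 1, 350 and 431 in DMSO libraries 2 and 3, and 87.4, 335 and 241.5 in the INC424 libraries. KRT5 was 784, 43.5 and 151 with DMSO and 2.7, 132 and 57.1 with INC424, and SPRR1B was at 0 in all 6. The 9 stroma, vessel and macrophage markers in the table summed to 464 to 782 with DMSO and 334 to 439 with INC424, with DCN at 0 in all 6. Of those tested, 2 of 5 stroma, vessel and macrophage markers (CD68 and CDH5) fell at the edge of the threshold, 1 of 5 lymphoid markers rose (CD7) and 1 fell (PAX5), and 1 of 4 granulocyte and monocyte markers fell (CD33); CD3E, CD2, CD8A, S100A8 and ELANE were below the filter. Without single libraries the first count fell to 0 or 1 and each lymphoid count to 0. More cells of a type and more RNA per cell cannot be told apart in such libraries. The megakaryocyte list summed to 77334 to 91436 with DMSO and 88549 to 97570 with INC424, and 15 of its 17 genes in the table passed the filter on low values, PF4 and TREML1 not among them.

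Promoters of 4 genes with large changes are shown because each holds the motif by which its list is usually read: CISH (fell), EGR1 (fell), HSPA8 (fell) and BNIP3 (rose). Each is the 250 bases before the RefSeq transcription start in GRCh38.p14, a later build than the authors' hg19, written 5′ to 3′ on the gene's strand. Capitals mark the STAT motif TTCNNNGAA in CISH (chr3:50611775-50612024, minus strand), the serum response factor motif, the CArG box, in EGR1 (chr5:138465229-138465478, plus strand), the heat shock factor motif GAANNTTC in HSPA8 (chr11:123062137-123062386, minus strand) and the E-box CACGTG in BNIP3 (chr10:131981924-131982173, minus strand), which contains the hypoxia-inducible factor (HIF) core ACGTG on each strand.
CISH: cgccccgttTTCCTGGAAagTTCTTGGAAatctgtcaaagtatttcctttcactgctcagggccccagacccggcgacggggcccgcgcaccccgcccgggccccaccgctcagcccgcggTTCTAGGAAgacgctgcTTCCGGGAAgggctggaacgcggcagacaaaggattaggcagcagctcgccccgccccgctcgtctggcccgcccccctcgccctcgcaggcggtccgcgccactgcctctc
EGR1: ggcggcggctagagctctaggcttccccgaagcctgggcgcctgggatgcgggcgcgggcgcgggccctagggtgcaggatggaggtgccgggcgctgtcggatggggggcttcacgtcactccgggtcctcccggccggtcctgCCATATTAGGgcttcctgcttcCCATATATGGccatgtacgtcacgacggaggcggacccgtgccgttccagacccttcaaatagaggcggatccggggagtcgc
HSPA8: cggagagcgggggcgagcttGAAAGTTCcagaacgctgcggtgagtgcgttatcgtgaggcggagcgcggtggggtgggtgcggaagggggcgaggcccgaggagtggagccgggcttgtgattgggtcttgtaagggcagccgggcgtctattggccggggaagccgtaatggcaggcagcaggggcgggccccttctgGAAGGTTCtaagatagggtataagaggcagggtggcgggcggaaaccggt
BNIP3: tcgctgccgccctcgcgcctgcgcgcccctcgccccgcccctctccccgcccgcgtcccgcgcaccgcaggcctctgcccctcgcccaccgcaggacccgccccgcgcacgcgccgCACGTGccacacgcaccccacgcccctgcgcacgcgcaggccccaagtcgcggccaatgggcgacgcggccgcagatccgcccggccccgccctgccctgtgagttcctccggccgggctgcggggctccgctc
The 4 STAT motifs of CISH begin 241, 230, 129 and 112 bases before its start, and the 2 CArG boxes of EGR1 begin 105 and 83 bases before its own. HSPA8 holds its 2 motifs at 230 and 50 bases before the start, and BNIP3 its E-box at 134.

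Over windows of 300 bases, which add 50 after the start, motifs were counted on both strands in the 10770 tested genes matched to a RefSeq promoter. TTCNNNGAA stood in 6.38% of them, in 5.74% of windows of genes that rose and 6.62% of genes that fell, and in 3 of 11 windows of the JAK-STAT target list. TGTTTAC, a FOXO motif, stood in 2.26% of all windows, 3.41% of genes that rose and 1.86% of genes that fell. It was in 4 of 20 windows of the FOXO-induced list. CACGTG, bound by MYC and MAX, stood in 9.94% of all windows, 13.4% of genes that fell and 10.3% of genes that rose. In the ribosome biogenesis list 12 of 32 windows held it. Among genes changed at least 2-fold, TGTTTAC stood in 6.0% of those that rose and 1.01% of those that fell. The same shares were 5.2% and 7.58% for TTCNNNGAA, and 12.4% and 13.6% for CACGTG. GAANNTTC stood in 4.79% of all windows, 4.48% of genes that rose and 4.14% of genes that fell. Among genes changed at least 2-fold it stood in 4.0% of those that rose and 6.57% of those that fell. In the heat shock list 7 of 20 windows held it. ACGTG, which is part of CACGTG, stood in 26.3% of all windows, 26.1% of genes that rose and 28.4% of genes that fell. In lists that mostly rose, it was in 7 of 14 hypoxia windows and 9 of 21 glycolysis windows. In lists that mostly fell, it was in 17 of 32 ribosome biogenesis windows and 8 of 20 heat shock windows. The CArG box stood in 1.1% of all windows, 0.887% of genes that rose and 1.36% of genes that fell. It was in 2 of 16 windows of the immediate early list. A match says that these letters are in the window, not that a factor binds there.

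After 4 h, 2870 of the 17405 genes tested were higher with INC424 (16.5%) and 2320 were lower (13.3%), 29.8% of all genes tested. The list counts below are to be read beside these shares. Most changes were small. Of the genes that rose, 1591 did so by under 1.5-fold, 849 by 1.5- to 2-fold, 370 by 2- to 4-fold and 60 by more, and of those that fell the numbers were 1258, 662, 346 and 54. Thus 430 genes (2.47%) rose and 400 (2.3%) fell at least 2-fold, and the median change of all genes was -0.0014. Genes that rose took 26.9% to 27.3% of reads with INC424 and 19.9% to 20.5% with DMSO, and genes that fell took 13.4% to 13.7% and 19.3% to 19.8%. The direction of these shares was set by the selection, since the genes were called on these libraries. The groups did not overlap in 7455 genes (42.8%). The 15 largest rises and 15 largest falls named below were taken only from such genes, so their lack of overlap is no further support. Where lack of overlap is given for other called genes, it adds little, since they were called on these same libraries. The first principal component, with 49.3% of the variance, put the 3 INC424 libraries on one side and the 3 DMSO libraries on the other. A fit that took its spread from all 24 libraries called 1790 genes, of which 1789 were also called here; below it is named the 24-library fit.

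**Figure D1:**
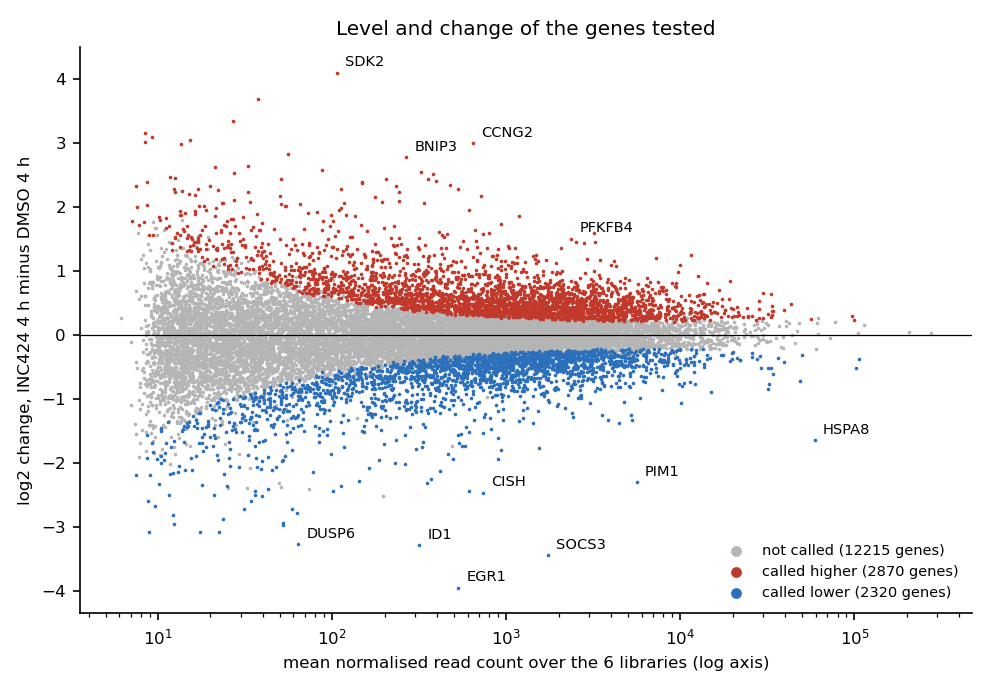
Each point is a gene tested. The x axis is the mean normalised read count over the 6 libraries on a log axis and the y axis the log2 change, INC424 4 h minus DMSO 4 h. Red marks the 2870 genes called higher, blue the 2320 called lower and grey the rest. Named points include EGR1 (log2 -3.94) and SOCS3 (log2 -3.43) at the bottom and SDK2 (log2 4.1) at the top.

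Genes listed as JAK-STAT targets fell. Of 14 JAK-STAT targets 12 fell and 0 rose, with a median of -0.86, where 13.3% of all genes tested fell. SOCS3, whose protein binds and blocks JAK kinases, was 283, 303 and 286 with INC424 and 2695, 3176 and 3625 with DMSO. Every INC424 library was below every DMSO library, and the fitted level was 10.8 times higher with DMSO (log2 -3.43, SE 0.11, adjusted p = 1.16e-11). CISH, which binds STAT5 docking sites on receptors, was 228, 249 and 201 against 1104, 1272 and 1371 (log2 -2.46, SE 0.13, adjusted p = 2.92e-09). SOCS1, another kinase inhibitor and the lowest of these genes, was 22.5, 28.9 and 12 against 77.3, 68.2 and 98.8 (log2 -1.96, SE 0.34). For all 3 brakes the groups were far apart beside the spread within them.

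The survival kinases fell as well. PIM1 was 1862, 1891 and 1921 with INC424 and 8558, 9511 and 9936 with DMSO (log2 -2.3, SE 0.08, adjusted p = 2.41e-11), with INC424 libraries that nearly coincided. PIM2 was 669.8, 748 and 689 against 1987, 2561 and 2634 (log2 -1.76, SE 0.11). Naive cells held more of both kinases than either 4 h group, 33429.7 ± 930.1 of PIM1 and 6279.7 ± 315 of PIM2, so the DMSO libraries were already below them. BCL2L1, which encodes the survival protein BCL-XL, was 2198, 2145 and 1965 against 4463, 4895 and 5577 (log2 -1.24, SE 0.09). The other members that fell, OSM, IRF1, MCL1, SOCS2, CCND2 and PIM3, changed by -0.40 to -0.87, and BCL6 (log2 0.05, adjusted p = 0.957) and IL2RA (log2 0.28, adjusted p = 0.192) did not pass. In the 24-library fit 10 of the 14 fell.

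Levels of the same genes elsewhere in the series set the fall in context. SOCS3 was 4021 ± 266 in naive cells, 585 ± 33.4 after 48 h of INC424 and 1057 ± 120.4 in the INC424 persistent line. CISH was 1178 ± 128, 702 ± 18.4 and 1330.5 ± 148 in the same order. The 48 h means of both genes stood above every 4 h INC424 library and below every DMSO library, and the persistent line's mean of CISH was within the range of the DMSO libraries. BCL2L1 was 6012 ± 229 in naive cells, 2634 ± 145 at 48 h and 7941 ± 733 in the persistent line.

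**Figure D2:**
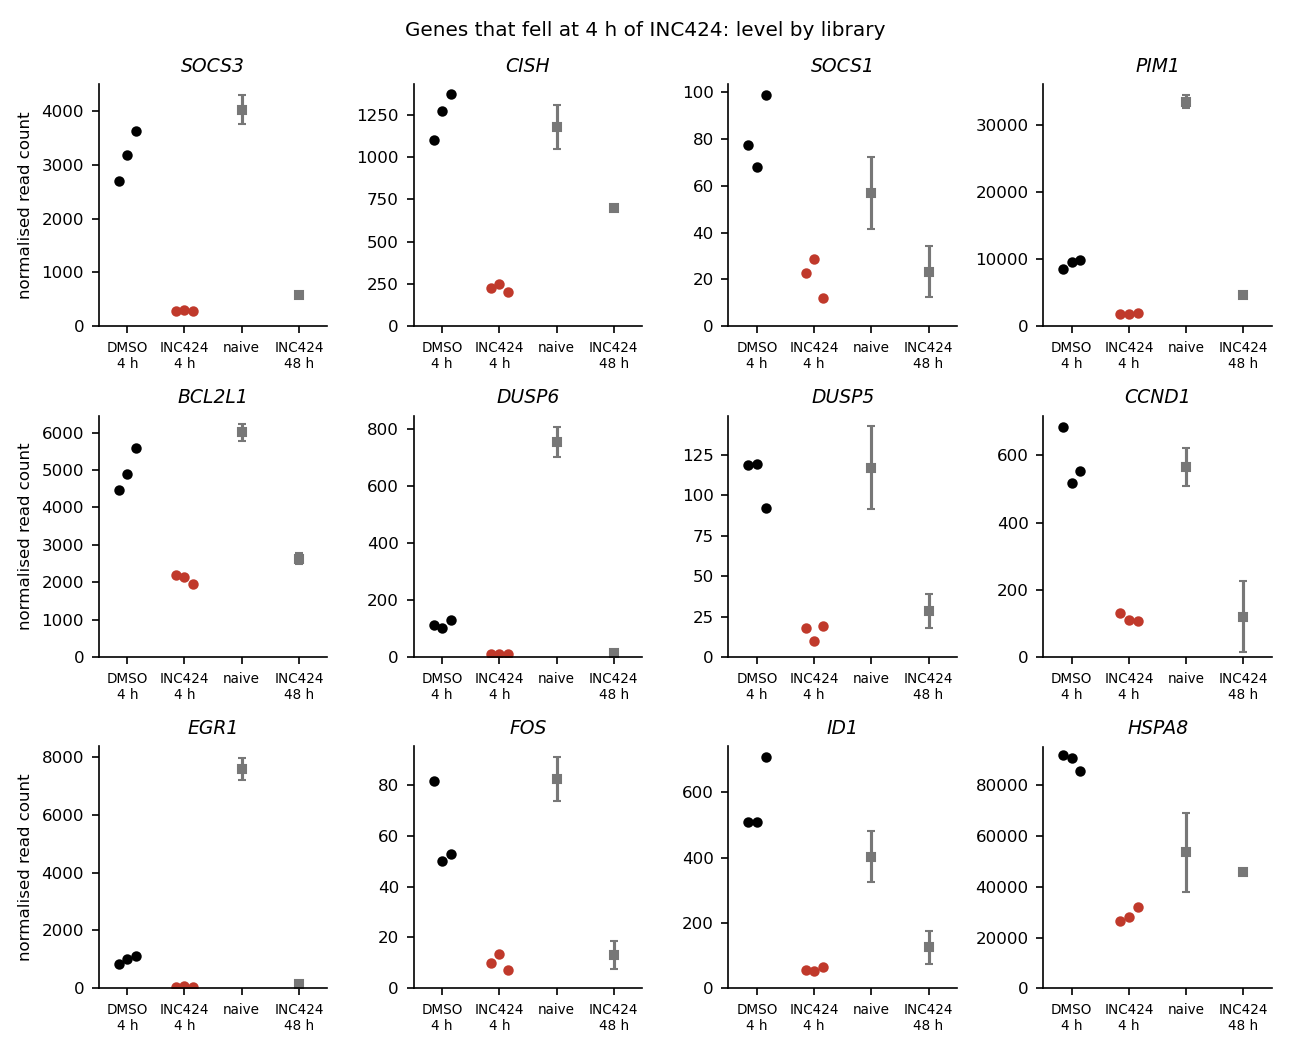
Normalised read counts of 12 genes that fell, on linear axes that start at 0. Black points are the 3 DMSO 4 h libraries, red points the 3 INC424 4 h libraries, and grey squares with bars the mean and SD (n = 3) of naive cells and of INC424 at 48 h. For SOCS3 the red points sit at 283, 303 and 286 and the black at 2695, 3176 and 3625. EGR1, DUSP6 and PIM1 are higher in naive cells than in either 4 h group.

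Transcripts of the kinases and STATs themselves mostly rose, by far less than 2-fold. Of 11 JAK and STAT genes 7 rose and 1 fell (median 0.30). STAT5B was 8779, 9511 and 9453 with INC424 and 5705, 5849.9 and 5925 with DMSO (log2 0.67, SE 0.08), and STAT5A was 18916, 18864 and 19102 against 12188, 13490.4 and 14535 (log2 0.50, SE 0.08). The coding sequences of this pair are much alike, so reads may be split between them. STAT6 (log2 0.58) and STAT2 (log2 0.47) also rose. JAK2, the kinase the drug blocks in these cells, was 3139, 3407 and 3571 against 2725, 2628 and 2356 (log2 0.39, SE 0.09, adjusted p = 0.00326), with no overlap. JAK1 (log2 0.25, adjusted p = 0.032) and TYK2 (log2 0.30, adjusted p = 0.0266) rose by less, and JAK1 did not pass without INC424 library 2 or 3 or DMSO library 1, 2 or 3 (adjusted p 0.0522 to 0.158), nor did TYK2 without INC424 library 1 or 2 or DMSO library 1 or 2 (adjusted p 0.0548 to 0.118). JAK3 (log2 0.09, adjusted p = 0.446) and STAT3 (log2 -0.18, adjusted p = 0.111) did not pass. By the 24-library fit 3 of the 11 rose and 1 fell; JAK2 (adjusted p = 0.325) and STAT5A (adjusted p = 0.239) did not pass.

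Of 18 cytokine and growth factor receptors tested 4 rose and 1 fell, a share near the 29.8% of all genes that changed. EPOR was 1483, 1271 and 1074 with INC424 and 703, 853 and 1004 with DMSO (log2 0.58), CSF2RB, the shared chain of the GM-CSF and interleukin-3 receptors, changed by 0.54 and KIT by 0.28, and TNFRSF1B, a TNF receptor, fell (log2 -0.48). KIT did not pass without INC424 library 2 or 3 or DMSO library 2 or 3 (adjusted p 0.069 to 0.123), TNFRSF1B did not without DMSO library 3 (adjusted p 0.0504), and 0 of the 18 passed in the 24-library fit.

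Among 14 genes whose proteins restrain JAK2, 2 rose and 4 fell, where 16.5% of all genes tested rose and 13.3% fell. CBLB, a ubiquitin ligase that marks active receptors and kinases for breakdown, was 1013, 1159 and 1171 with INC424 and 498, 421 and 387 with DMSO (log2 1.36, SE 0.12, adjusted p = 5.62e-07). PTPRC, the phosphatase CD45, rose from 6826 ± 706 to 11993 ± 610.5 (log2 0.82). SH2B3, the adaptor LNK that binds JAK2, went the other way, at 1030.4, 1207 and 1253 against 2235, 2484 and 2426 (log2 -1.04, SE 0.10, adjusted p = 1.16e-06). SH2B3 was thus lower, as were SOCS3, SOCS1 and CISH, counted above among the JAK-STAT targets, while CBLB and PTPRC were higher. The groups did not overlap in any of these genes, nor in 42.8% of all genes tested. The smaller falls of PTPN2 (log2 -0.32), CBL (log2 -0.31) and PTPN1 (log2 -0.27) rested on single libraries: 1 of the 14 fell without INC424 library 1 or DMSO library 2, 2 fell without INC424 library 2, and 1 fell in the 24-library fit.

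Feedback genes of ERK fell. Of 16 ERK output genes 10 fell and 2 rose (median -0.64). DUSP6, the phosphatase that switches off ERK, was 12.6, 9.92 and 11 with INC424 and 115, 102 and 131 with DMSO (log2 -3.26, SE 0.30, adjusted p = 8.05e-07). DUSP5, the nuclear phosphatase of ERK, was 18, 9.92 and 19 against 119, 119 and 92.5 (log2 -2.78, SE 0.31). Both phosphatases were left with few reads in every INC424 library. CCND1, cyclin D1, was 132, 112 and 108 against 685, 519 and 554 (log2 -2.31, SE 0.16). The DMSO level of DUSP6 was itself below that of untreated cells, at 116 ± 14.7 against 754 ± 53.4 in naive cells.

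EPHA2, a receptor kinase, and IER3, a survival gene, fell too, but both are also expressed in epithelium and were highest in the library rich in squamous markers. EPHA2 was 13.5, 32.5 and 8.02 with INC424 and 103, 65.7 and 49.8 with DMSO (log2 -2.11), and IER3 was 11.7, 34.3 and 15 against 151, 46 and 57.7 (log2 -1.95). The part of the squamous markers in these falls was not tested beyond leaving that library out, after which both genes stayed called and 8 of the 16 ERK output genes fell. EPHA4 (log2 1.37) and ETV5 (log2 0.49) were the members that rose; EPHA4 did not pass without INC424 library 3 or DMSO library 1 or 2 (adjusted p 0.0509 to 0.101), and ETV5 did not without INC424 library 2 or 3 or DMSO library 2 or 3 (adjusted p 0.0666 to 0.158). Under the 24-library fit 4 fell and 0 rose, and CCND1 (adjusted p = 0.0861), EPHA2 (adjusted p = 0.254) and IER3 (adjusted p = 0.259) did not pass.

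Immediate early genes split. Of 20 tested, 9 fell and 4 rose. EGR1, a zinc finger factor induced within minutes of growth factor signalling, was 48.7, 88.4 and 58.1 with INC424 and 833, 1020.2 and 1119.7 with DMSO, the largest fall of all genes tested (log2 -3.94, SE 0.20, adjusted p = 2.12e-09). Its relative EGR3 was 9.02, 3.61 and 3.01 against 35, 34.5 and 56.1 (log2 -2.88). EGR3 was under 10 in every INC424 library, so it passed the filter, and joined the 9, only through the DMSO libraries. FOS, an AP-1 subunit, was 9.92, 13.5 and 7.01 against 81.4, 50.1 and 53 (log2 -2.49). Naive cells held far more EGR1 than either group, at 7592 ± 374, while their FOS, at 82.3 ± 8.7, was close to the highest DMSO library. JUNB (log2 -1.17) and FOSL2 (log2 -0.92) fell as well.

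FOSB, the other large AP-1 change, went up. It was 190.2, 185 and 161 with INC424 and 46.4, 37 and 50.6 with DMSO (log2 1.99, SE 0.22, adjusted p = 5.30e-06), and stood at 49.6 ± 20.5 in naive cells and 47.2 ± 19.9 at 48 h, so that the 4 h INC424 libraries were above all of these means. ZFP36L1 (log2 0.40), KLF10 (log2 0.34) and BTG2 (log2 0.38) rose slightly; BTG2 did not pass without INC424 library 2 or 3 or DMSO library 1 or 3 (adjusted p 0.0556 to 0.142). With the 24-library fit 7 fell and 1 rose, and FOSB was just outside the threshold (adjusted p = 0.051).

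ID1, an inhibitor of basic helix-loop-helix factors that BMP-SMAD signalling and STAT5 can induce, was 56.8, 52.3 and 64.1 with INC424 and 508, 509 and 708 with DMSO (log2 -3.28, SE 0.18, adjusted p = 5.44e-09). Its relative ID2 fell little, from 2259 ± 99.5 to 1765 ± 44.1 (log2 -0.36). The SMAD brakes BAMBI (log2 0.85), SMAD6 (log2 0.44) and SMAD7 (log2 0.52) rose, SMAD7 not without INC424 library 1, 2 or 3 or DMSO library 1 or 2 (adjusted p 0.0502 to 0.188). Thus 3 of the 9 genes of this list rose and 2 fell, where 16.5% of all genes tested rose and 13.3% fell. Across all 24 libraries the fit called 1 higher and 1 lower, and ID2 (adjusted p = 0.074), SMAD6 (adjusted p = 0.173) and SMAD7 (adjusted p = 0.369) did not pass.

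Secreted ligands fell. Of 12 tested 8 fell and 0 rose (median -0.69). LIF, an interleukin-6 family cytokine, was 172, 211 and 169 with INC424 and 429, 557 and 519 with DMSO (log2 -1.44, SE 0.15, adjusted p = 3.46e-06). The chemokine CXCL2 was 16.2, 11.7 and 15 against 65.9, 55.9 and 70.4 (log2 -2.09), and IL8, another chemokine, was 39.7, 73.1 and 65.1 against 125, 109 and 100.4 (log2 -0.94). HBEGF, an EGF receptor ligand, was 5.41, 11.7 and 17 against 58.6, 41.1 and 41.1 (log2 -2.06), and SPP1, osteopontin, was 2.7, 9.92 and 0 against 45.6, 31.2 and 15 (log2 -3.07). HBEGF and SPP1 were highest in the DMSO library rich in squamous markers, and 8 of 12 still fell without it. SPP1 was under 10 in every INC424 library, so it passed the filter, and joined the 8, only through the DMSO libraries. In the 24-library fit 2 fell; HBEGF (adjusted p = 0.0638), SPP1 (adjusted p = 0.4) and IL8 (adjusted p = 0.243) did not pass.

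**Figure D3:**
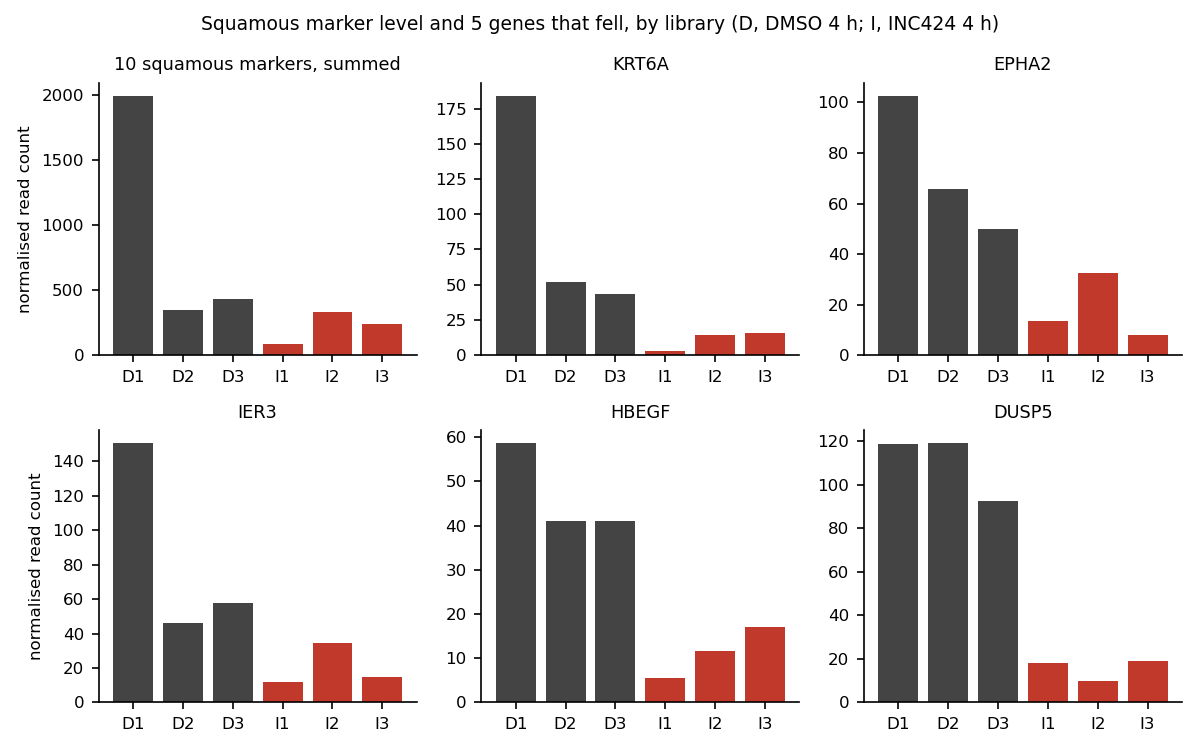
Bars are normalised read counts in each of the 6 libraries (D1 to D3, DMSO 4 h; I1 to I3, INC424 4 h). The first panel sums the 10 squamous markers, at 1995 in D1, and the others show KRT6A, EPHA2, IER3, HBEGF and DUSP5. KRT6A and IER3 are highest in D1 and lower in D2 and D3, while DUSP5 is at 119, 119 and 92.5 in the 3 DMSO libraries.

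Genes listed as induced by FOXO factors rose. Of 24 tested 18 rose and 1 fell (median 0.76), where 16.5% of all genes tested rose. CCNG2, an unconventional cyclin linked to cell cycle arrest, was 1166, 1197 and 1081 with INC424 and 121, 156 and 152 with DMSO (log2 3.0, SE 0.13, adjusted p = 4.77e-10). KLHL24, an adaptor of ubiquitin ligases, was 674, 617 and 699 against 134, 114 and 125 (log2 2.41, SE 0.14). PIK3IP1, a brake on PI3K, was 252, 271 and 223 against 34.2, 59.1 and 49 (log2 2.39, SE 0.22). In each gene the lowest INC424 library was several times above the highest DMSO library. These genes were among the 15 largest rises, which were taken only from genes whose groups did not overlap. TSC22D3, the leucine zipper protein GILZ, was 815, 719 and 865 against 155, 170 and 142 (log2 2.35), and S1PR1, a sphingosine-1-phosphate receptor, was 435, 463 and 460 against 159.6, 177 and 195 (log2 1.35). By the 24-library fit 15 of the 24 rose and 0 fell.

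In untreated naive cells these genes were not low. CCNG2 was 885 ± 98.4 there, KLHL24 846 ± 181, PIK3IP1 265 ± 61.7 and TSC22D3 565 ± 63.7. All 4 naive means were thus several times above the DMSO means. At 48 h of INC424 the values were 953 ± 36.2, 1485 ± 88.2, 682 ± 11.7 and 373 ± 51. The DMSO libraries were the lowest of these 4 groups for each gene. Apart from the vehicle, the labels do not say how the handling of the DMSO and naive cultures differed, so vehicle and handling cannot be told apart.

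**Figure D4:**
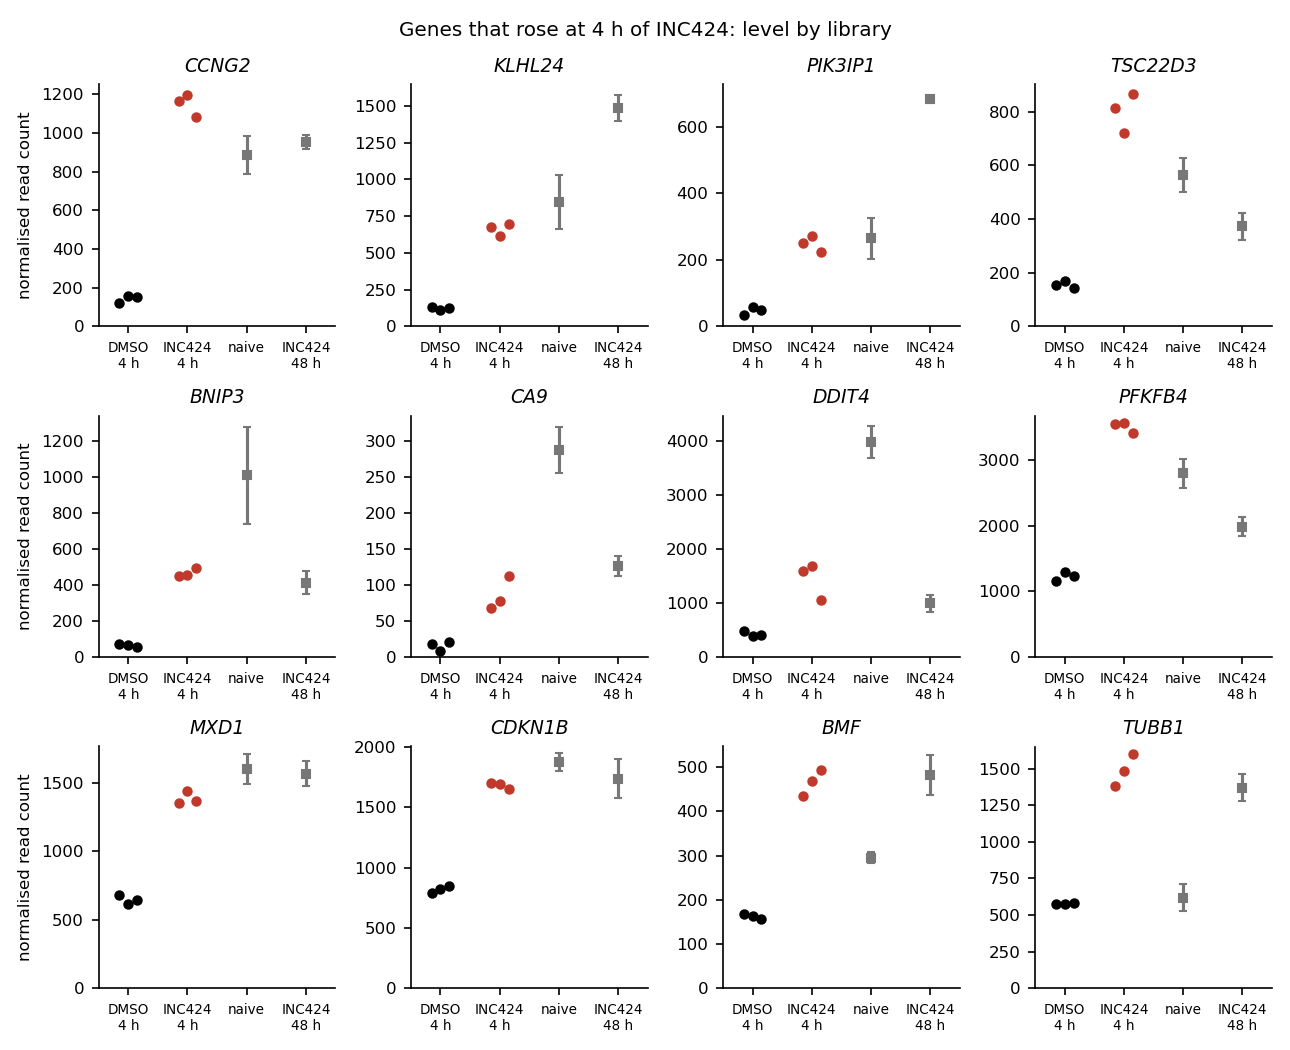
Normalised read counts of 12 genes that rose, drawn as for the genes that fell: black points are the DMSO 4 h libraries, red points the INC424 4 h libraries, and grey squares with bars the mean and SD (n = 3) of naive cells and of INC424 at 48 h. In 10 of the 12 panels the naive mean lies closer to the red points than to the black. TUBB1, with 618 ± 91.9 in naive cells and 576 ± 5.15 with DMSO, is an exception.

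Autophagy and lysosome genes rose in part, 10 of 18 with 0 lower (median 0.37). With TMM or upper-quartile scaling, edgeR, DESeq2, a term for libraries run again or without DMSO library 3, 1 was lower. ULK1, the kinase that starts autophagy, was 1705, 1612 and 1506 with INC424 and 488, 672 and 745 with DMSO (log2 1.36, SE 0.13, adjusted p = 1.61e-06). GABARAPL1, which coats autophagosomes (log2 0.91), WIPI1, which binds their membrane (log2 0.86), FNIP1, a folliculin partner (log2 0.81), and MITF, a transcription factor of lysosomal genes (log2 0.79), rose as well, with no overlap between groups. By the 24-library fit 7 of the 18 rose, MITF not among them (adjusted p = 0.321).

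Among MYC partners and antagonists 7 of 12 rose and 0 fell (median 0.52). MXD4 was 359.7, 418 and 299 with INC424 and 87.9, 138 and 187 with DMSO (log2 1.43, SE 0.22), MXD1 was 1355, 1445 and 1371 against 679, 619 and 646 (log2 1.1, SE 0.10) and MXD3 was 192, 205 and 178 against 75.7, 114 and 111 (log2 0.95). These 3 proteins compete with MYC for MAX. MNT, another MAX partner that represses (log2 0.68), and MLXIP, a glucose-sensing relative (log2 0.65), rose by less. MYC itself, named here after its values were seen, was 14191, 14153 and 13213 with INC424 and 14255, 15572 and 17532 with DMSO (log2 -0.18, SE 0.09, adjusted p = 0.126). It did not pass except without DMSO library 1 (adjusted p = 0.0399), when 2 of the 12 fell. A member other than MYC fell with TMM or upper-quartile scaling, edgeR and DESeq2, among other alternatives. In the 24-library fit 5 rose and 0 fell.

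Ribosome biogenesis genes, which MYC is known to drive, fell almost as a block: 31 of 38 fell and 1 rose (median -0.59). RRS1, a ribosome assembly factor, was 512, 503 and 395 with INC424 and 1084, 1175 and 1169 with DMSO (log2 -1.29, SE 0.12, adjusted p = 9.09e-07). NOP16, a nucleolar protein, was 379.5, 386 and 319 against 869, 648 and 770.2 (log2 -1.07). PNO1 (log2 -0.94), NIP7 (log2 -0.93) and BYSL (log2 -0.91), which mature the ribosomal subunits, fell by nearly 2-fold. LYAR, a nucleolar protein of growing cells, was the member that rose (log2 0.37). The falls were even rather than deep, with 2 of the 38 past 2-fold.

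In untreated cells these genes were nearer the INC424 level. Naive cells held 684 ± 80.8 of RRS1, 1605 ± 196 of NIP7 and 1347 ± 151 of BYSL, against 1143 ± 51, 2957 ± 132 and 2159 ± 192 with DMSO and 470.1 ± 65.3, 1548 ± 100 and 1148 ± 91.3 with INC424. Under the 24-library fit 23 of the 38 fell and LYAR did not pass (adjusted p = 0.312).

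Enzymes that make nucleotides and polyamines followed, with 12 of 19 lower and 0 higher (median -0.30). NME1, a nucleoside diphosphate kinase, was 973, 671 and 678 with INC424 and 1392, 1170.5 and 1188 with DMSO (log2 -0.71, SE 0.13). PPAT, the first step of purine synthesis (log2 -0.66), CTPS1, which makes CTP (log2 -0.65), SRM, spermidine synthase (log2 -0.63), and UMPS, which makes UMP (log2 -0.53), fell with no overlap between groups. With the 24-library fit 5 of the 19 fell. Of 26 ribosomal proteins 2 rose (RPL3, log2 0.28, and RPL5, log2 0.24) and 0 fell, with a median of -0.11. That list turned with INC424 library 1, without which 1 rose and 11 fell, and 0 passed without DMSO library 2 or in the 24-library fit. RPL3 did not pass without INC424 library 1 or DMSO library 2 (adjusted p 0.0812 to 0.116), nor RPL5 without INC424 library 2 or 3 or DMSO library 2 or 3 (adjusted p 0.12 to 0.186).

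Cytosolic heat shock chaperones fell, 16 of 22 with 2 higher (median -0.48). HSPA8, the constitutive HSP70 and the most read of the genes past 2-fold in the plot of level and change, was 26356, 28251 and 32076 with INC424 and 92025, 90723 and 85777 with DMSO (log2 -1.64, SE 0.09, adjusted p = 5.96e-09). Its processed copy HSPA8P1, which can share reads with it and was picked after its values were seen, was 406, 327 and 379 against 1644, 1246 and 1381. HSPA1A was 364, 312 and 268 against 831, 740.1 and 988 (log2 -1.44) and HSPA1B 442, 423 and 432 against 1026, 1189 and 1403 (log2 -1.47); these inducible HSP70 genes are nearly identical, so the split between them is uncertain. HSPH1, which recharges HSP70, was 2093, 2227 and 2249 against 6168, 5457 and 4857 (log2 -1.32), and DNAJA1, an HSP40 partner, fell from 7790.3 ± 381 to 3951 ± 303 (log2 -0.98).

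The HSP70 cochaperone BAG3 (log2 0.43) and the master factor HSF1 (log2 0.36) were the members that rose. BAG3 did not pass without INC424 library 2 or DMSO library 2 (adjusted p 0.106 to 0.132), and HSF1 did not without INC424 library 2 or DMSO library 1 or 2 (adjusted p 0.0538 to 0.0589). Naive cells held 53559 ± 15439 of HSPA8 and 2834 ± 586 of HSPH1, between the DMSO and INC424 means for each. In the 24-library fit 12 of the 22 fell and 0 rose, and HSPA1A did not pass (adjusted p = 0.282).

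Of 19 chaperones of the endoplasmic reticulum 4 rose and 1 fell (median 0.07), shares near those of all genes. DNAJB9, a BiP cochaperone, was 201, 254 and 187 with INC424 and 119.7, 117 and 130.5 with DMSO (log2 0.79), and P4HB (log2 0.39), HYOU1 (log2 0.31) and HSP90B1 (log2 0.30) rose by less. DNAJB11 fell (log2 -0.26). HSP90B1 did not pass without INC424 library 2 or DMSO library 2 or 3 (adjusted p 0.0562 to 0.062), and DNAJB11 did not without INC424 library 1 or 3 or DMSO library 1 or 2 (adjusted p 0.0598 to 0.0778). Without the trend of variance on level 1 rose and 0 fell, and 3 rose and 0 fell by the 24-library fit.

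Genes of the ATF4 stress programme split evenly, 7 higher and 7 lower of 24, where 16.5% of all genes tested rose and 13.3% fell. DDIT4, an mTORC1 inhibitor that hypoxia also induces, was 1592, 1697 and 1060.2 with INC424 and 479, 398 and 406 with DMSO (log2 1.73, SE 0.15). VLDLR, a lipoprotein receptor (log2 1.82), SLC7A11, the cystine carrier (log2 0.87), SLC38A2, an amino acid carrier (log2 0.57), and STC2, a secreted glycoprotein (log2 0.96), rose. The transcription factors CEBPG, at 950.2, 949 and 942 against 1762, 1720 and 1593 (log2 -0.84), ATF5 (log2 -0.59) and CEBPB (log2 -0.57) fell, with TRIB3, an inhibitor of AKT and ATF4 (log2 -0.70), and CHAC1, which degrades glutathione (log2 -1.51). STC2 did not pass without DMSO library 3 (adjusted p 0.069), CEBPB did not without INC424 library 3 or DMSO library 3 (adjusted p 0.0814 to 0.128) and CHAC1 did not without DMSO library 3 (adjusted p 0.0568). Both 4 h groups were far below untreated cells for CHAC1, at 12.1 ± 2.86 with INC424 and 37.4 ± 12.8 with DMSO against 937 ± 39.8 in naive cells. By the 24-library fit 4 rose and 4 fell.

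Of 18 aminoacyl-tRNA synthetases 3 rose and 1 fell, no more than the 29.8% of all genes that changed. AARS, at 17614, 18342 and 18229.8 against 12336, 12773 and 12904 (log2 0.51), CARS (log2 0.40) and QARS (log2 0.30) rose and RARS fell (log2 -0.46). QARS did not pass without DMSO library 2 (adjusted p 0.051), 2 fell without DMSO library 1, and 0 passed in the 24-library fit.

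Genes listed as switched on by hypoxia-inducible factors rose, 14 of 17 with 2 lower, and their median of 1.18 was the highest of the 36 lists. BNIP3, a receptor for the removal of mitochondria, was 449.9, 454 and 497 with INC424 and 74.9, 70.6 and 56.9 with DMSO (log2 2.78, SE 0.17, adjusted p = 1.41e-08). CA9, a carbonic anhydrase of the cell surface, was 67.6, 78.5 and 113 against 18.7, 8.21 and 20.6 (log2 2.44, SE 0.37). ANKRD37, an ankyrin repeat protein, was 171, 155 and 138 against 30.9, 43.5 and 51.4 (log2 1.88, SE 0.24). The groups did not overlap in any of the 3 genes, which the rule for the 15 largest rises required of BNIP3 and CA9. ADM, the vessel peptide adrenomedullin, rose from 14 ± 4.11 to 44.2 ± 10.1 (log2 1.6), and MIR210HG, the host of a hypoxia-induced microRNA and among the 15 largest rises, was 411, 418 and 332 against 75.7, 71.5 and 80.7 (log2 2.33).

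EPAS1, which encodes the HIF-2 alpha subunit, and VEGFA, a vessel growth factor, were the members that fell. EPAS1 was 74.8, 90.2 and 143 with INC424 and 294, 284 and 255 with DMSO (log2 -1.48, SE 0.21), and VEGFA 9673, 9605 and 8690 against 11662, 13169 and 13684 (log2 -0.46). Naive cells exceeded both 4 h groups for BNIP3 (1007 ± 270.3), CA9 (288 ± 31.7) and VEGFA (20648 ± 6562), but not for ANKRD37 (33 ± 12.8). Under the 24-library fit 9 of the 17 rose and 0 fell; CA9 (adjusted p = 0.132), ADM (adjusted p = 0.239), EPAS1 (adjusted p = 0.14) and VEGFA (adjusted p = 0.096) did not pass.

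Glycolysis genes rose with them, 15 of 22 with 0 lower (median 0.32). PFKFB4, which sets the level of the activator fructose 2,6-bisphosphate, was 3551, 3554 and 3412 with INC424 and 1161, 1302 and 1239.9 with DMSO (log2 1.51, SE 0.09, adjusted p = 7.28e-09). The aldolase gene ALDOC was 2099.6, 2076 and 1796 against 769, 806 and 969 (log2 1.23), and SLC2A1, the glucose carrier GLUT1, was 12432, 13250.4 and 12747 against 5608, 6439.7 and 7382 (log2 0.99). PDK1 (log2 0.80) and PDK3 (log2 0.76), which keep pyruvate out of mitochondria, rose too. SLC2A1 was lower in naive cells (5091 ± 263) than in the INC424 libraries, while ALDOC was as high there (2150 ± 132). With the 24-library fit 8 of the 22 rose.

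**Figure D5:**
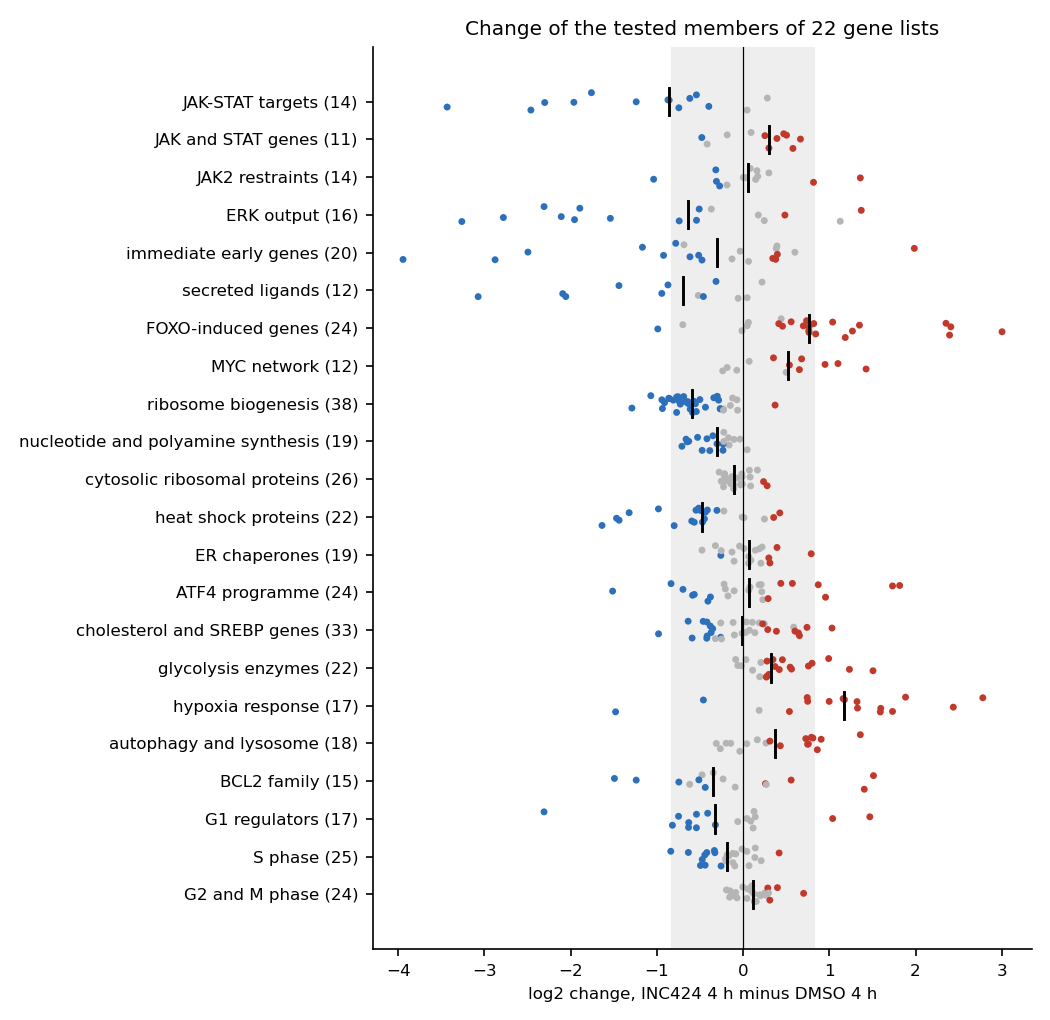
Each point is a tested member of a list, placed by its log2 change (x axis, INC424 4 h minus DMSO 4 h). The number tested is in brackets, black ticks are list medians, red marks members called higher, blue called lower and grey not called. The grey band runs from the 5th to the 95th percentile of all genes tested, -0.83 to 0.82. The hypoxia median of 1.18 and the JAK-STAT target median of -0.86 lie outside the band.

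The cholesterol list split, 8 higher and 11 lower of 33, where 16.5% of all genes tested rose and 13.3% fell. The synthesis enzymes MSMO1 (log2 -0.64) and IDI1 (log2 -0.59) fell. The cholesterol exporter ABCA1 was 559, 616 and 669 with INC424 and 275, 333 and 293 with DMSO (log2 1.03, SE 0.13, adjusted p = 2.03e-05), with no overlap, and the ubiquitin ligase MYLIP (log2 0.64) rose with the lipid factor SREBF1 (log2 0.60). HSD17B7, a synthesis enzyme, rose (log2 0.65) but not without DMSO library 2 (adjusted p 0.0647), when 5 of the list rose. Under the 24-library fit 3 rose and 4 fell, MSMO1 (adjusted p = 0.115) not among them.

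In the BCL2 family 4 of 15 rose and 5 fell, where 16.5% of all genes tested rose and 13.3% fell. Genes of proteins that trigger cell death by binding survival proteins rose: BMF was 434, 468 and 494 with INC424 and 169, 163 and 156 with DMSO (log2 1.51, SE 0.14, adjusted p = 9.08e-07), BBC3, which encodes PUMA, was 407, 330.1 and 288 against 109.9, 121 and 154 (log2 1.41, SE 0.18), and BCL2L11, which encodes BIM, was 1269, 1339 and 1394 against 1027, 867 and 833 (log2 0.56). The survival genes BCL2L1, given above, and MCL1, at 3433, 3611 and 3698 against 6245, 6035 and 5722 (log2 -0.74), fell. The direction was not uniform by function. PMAIP1, a death trigger of the same kind as BMF (log2 -0.51), and the pore-forming death genes BOK (log2 -1.49) and BAK1 (log2 -0.44) also fell, and the survival gene BCL2L2 rose slightly (log2 0.26). PMAIP1 did not pass without INC424 library 3 or DMSO library 2 (adjusted p 0.0572 to 0.0588), BAK1 did not without INC424 library 1 or DMSO library 2 or 3 (adjusted p 0.111 to 0.14) and BCL2L2 did not without INC424 library 1, 2 or 3 or DMSO library 1 or 3 (adjusted p 0.0513 to 0.186). Without DMSO library 2, 3 of the 15 fell; in the 24-library fit 3 rose and 2 fell.

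Among regulators of the G1 phase 2 of 17 rose and 9 fell (median -0.32). CDKN1B, the inhibitor p27 and a known FOXO target, was 1704, 1689 and 1648 with INC424 and 789, 819 and 845 with DMSO (log2 1.04, SE 0.09, adjusted p = 6.10e-07), and CDKN1C, the inhibitor p57, was 46.9, 56.8 and 29.1 against 16.3, 13.1 and 15 (log2 1.47). Drivers of entry into S phase fell: beside CCND1, CCND3 (log2 -0.63), the E cyclins CCNE1 (log2 -0.82) and CCNE2 (log2 -0.75) and the phosphatase CDC25A (log2 -0.63). By the 24-library fit 2 rose and 4 fell, with CCND3 (adjusted p = 0.0531) and CCNE2 (adjusted p = 0.0766) not among them.

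S phase genes fell in part, 10 of 25 with 1 higher (median -0.19). RRM2, a subunit of ribonucleotide reductase, was 2413, 2470.4 and 2517 with INC424 and 4606, 4424 and 4209 with DMSO (log2 -0.84, SE 0.08), and CLSPN, a replication checkpoint mediator (log2 -0.63), the helicase subunits GINS3 (log2 -0.49) and GINS4 (log2 -0.47) and the helicase loader CDC6 (log2 -0.44) fell by less. CDT1, another loader, was higher (log2 0.42) with groups that overlapped, and did not pass without INC424 library 1 or 2 or DMSO library 1 (adjusted p 0.0636 to 0.107); without DMSO library 3, 2 rose. Under the 24-library fit 3 fell and 0 rose. Of 24 genes of the G2 and M phases 4 rose, a share near the 16.5% of all genes tested, and 0 fell (median 0.12). BUB1, a spindle checkpoint kinase, was 3747, 3918 and 4107 against 2605, 2533 and 2121 (log2 0.70, SE 0.09), and TTK (log2 0.40), KIF20A (log2 0.31) and CENPF (log2 0.29) rose by less. The count moved with single libraries: 2 rose without INC424 library 3 or DMSO library 2, 1 fell without DMSO library 1, and 1 rose in the 24-library fit.

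Among p53 targets 5 of 18 rose and 6 fell, where 16.5% of all genes tested rose and 13.3% fell. TP53INP1, a stress-induced partner of p53 that is also linked to autophagy, was 381, 372 and 278 with INC424 and 68.4, 50.1 and 68.8 with DMSO (log2 2.44, SE 0.20, adjusted p = 2.47e-07). The kinase PLK3 was 123, 161 and 123 against 391, 465 and 549.6 (log2 -1.78), and the nuclease AEN 1326, 1440.4 and 1293 against 2788, 3028 and 3098 (log2 -1.13). CDKN1A, the inhibitor p21 and the best known p53 target, fell slightly (log2 -0.41) and did not pass without INC424 library 3 or DMSO library 2 or 3 (adjusted p 0.0548 to 0.114). The list counts moved when single libraries were left out: 3 rose without INC424 library 3, 3 fell without DMSO library 1 and 2 fell without DMSO library 2. With the 24-library fit 4 rose and 2 fell.

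NF-kB genes split, 3 of 17 higher and 5 lower, where 16.5% of all genes tested rose and 13.3% fell. NFKBIZ, a nuclear co-factor of NF-kB that STAT3 can induce, was 216, 267 and 293 with INC424 and 830.3, 882 and 852 with DMSO (log2 -1.73, SE 0.13, adjusted p = 1.08e-07). ICAM1, an adhesion molecule (log2 -0.80), and CD83 (log2 -1.04) fell with it. BCL3, another nuclear co-factor and among the 15 largest falls of all genes, was 218, 196 and 160.3 against 871, 1045 and 1199.5 (log2 -2.43, SE 0.15). The subunits REL (log2 0.93) and NFKB2 (log2 0.47) and the adaptor TRAF1 (log2 0.56) rose. Without the trend of variance on level 1 of the 17 rose, and REL (adjusted p = 0.0579) and NFKB2 (adjusted p = 0.0643) did not pass. With the 24-library fit 2 rose and 4 fell, TRAF1 (adjusted p = 0.13) not among them.

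Of 16 interferon-stimulated genes tested 2 rose and 2 fell, no more than the 29.8% of all genes that changed. GBP1, a guanylate-binding protein (log2 -1.05), and IRF9, a partner of STAT2 (log2 -0.99), fell, at 157, 153 and 116 with INC424 against 263, 297 and 285 with DMSO for IRF9. IFIT2, which binds viral RNA, rose, at 403, 436 and 437 against 190.5, 209 and 191 (log2 1.11), as did its neighbour IFIT1 (log2 0.87), which did not pass without INC424 library 2 or DMSO library 2 (adjusted p 0.0632 to 0.0977). In the 24-library fit 1 rose and 1 fell.

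Of 23 erythroid genes 9 rose and 1 fell (median 0.16). SLC25A37, the mitochondrial iron carrier mitoferrin, was 23339.9, 26048 and 24731 with INC424 and 13442, 13770.5 and 13769.8 with DMSO (log2 0.85, SE 0.08, adjusted p = 9.08e-07). SLC4A1, the red cell anion exchanger, was 111, 146 and 129 against 48, 55.9 and 47.4 (log2 1.33), and HBE1, embryonic globin (log2 0.63), and KEL, a blood group protein (log2 0.56), rose. TFRC, the transferrin receptor, fell (log2 -0.42). At 48 h of INC424 the level of SLC25A37 was 45302 ± 791 and of SLC4A1 426 ± 29.3, above every 4 h library. By the 24-library fit 2 rose and 1 fell, and HBE1 (adjusted p = 0.419) and KEL (adjusted p = 0.132) did not pass.

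Megakaryocyte genes split, 3 of 15 higher and 4 lower, where 16.5% of all genes tested rose and 13.3% fell. TUBB1, the tubulin of platelets, was 1384, 1485 and 1597 with INC424 and 572, 574 and 582 with DMSO (log2 1.37, SE 0.10, adjusted p = 7.85e-08), and reached 3665 ± 189 in the INC424 persistent line. THBS1, a platelet granule protein, was 2822, 2909.7 and 3277 against 7906, 7535 and 7064 (log2 -1.32, SE 0.09), while naive cells held only 665 ± 71. The platelet receptors GP6 (log2 -0.74) and GP1BA (log2 -0.51) fell. GP9 rose with overlap (log2 0.59) and did not pass without INC424 library 1 or 2 or DMSO library 1 or 2 (adjusted p 0.0665 to 0.121); CD9 fell with overlap (log2 -1.12), was highest in the DMSO library rich in squamous markers, and did not pass without INC424 library 1 or 3 or DMSO library 1 or 3 (adjusted p 0.0976 to 0.298). Under the 24-library fit 1 rose and 2 fell.

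Of 20 blood lineage factors 4 rose and 2 fell, a share near the 29.8% of all genes that changed. ERG, an ETS factor of megakaryocytes and stem cells, was 3925, 3858 and 3977 with INC424 and 2188, 2254 and 2333 with DMSO (log2 0.80, SE 0.08), and KLF1, the erythroid master factor (log2 0.63), LDB1 (log2 0.45) and NFE2 (log2 0.42) rose. GATA2 (log2 -0.39) and GFI1B (log2 -0.41) fell; GFI1B did not pass without DMSO library 2 or 3 (adjusted p 0.0546 to 0.0588), and 1 of the 20 fell without DMSO library 2 or 3. With the 24-library fit 0 passed. The 9 mitochondrially encoded RNAs fell in 5 cases, led by MT-ND1, at 20626, 26982 and 24102 against 37586, 42662 and 41328 (log2 -0.77), with 3 lower without INC424 library 3 and 0 in the 24-library fit. The sum of the 9 overlapped between groups, at 511368, 735057 and 587234 with INC424 and 615313, 632132 and 666394 with DMSO.

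Some of the largest changes lay outside the lists. SDK2, a cell adhesion protein, had the largest rise of all genes tested, at 172, 231 and 200.4 with INC424 and 12.2, 15.6 and 6.33 with DMSO (log2 4.1, SE 0.32, adjusted p = 1.42e-07); it stood at 405 ± 54.3 in naive cells and 7.83 ± 8.33 in the INC424 persistent line. ERVFRD-1, the retroviral envelope gene syncytin-2, was 77.5, 104 and 114 against 10.6, 10.7 and 18.2 (log2 2.84). PNRC1, a nuclear receptor coactivator, was 555, 559 and 537 against 114, 93.6 and 75.9 (log2 2.55). None of these groups overlapped, as the rule for the 15 largest rises required. The Yippee-like genes YPEL3, at 685, 643 and 620.3 against 96.1, 106 and 140 (log2 2.52), and YPEL4, at 579.7, 694 and 520.1 against 117, 93.6 and 115 (log2 2.45), were also among the 15 largest rises, as were the noncoding RNA LINC00173 (log2 2.57) and C1orf213 (log2 2.37). The sources used here do not say whether reads were counted by strand, so for noncoding RNAs such as MIR210HG and LINC00173 reads from overlapping genes cannot be told apart.

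Beside genes named above, the 15 largest falls held CD69, an early activation marker of blood cells, at 124, 134 and 120.2 with INC424 and 666, 651 and 510 with DMSO (log2 -2.25, SE 0.15, adjusted p = 2.71e-08). KCTD12, a subunit of GABA-B receptors, was 25.2, 40.6 and 43.1 against 242, 161 and 164 (log2 -2.36). Neither gene's groups overlapped, as the rule for these 15 required. KRT6A, a squamous keratin, was 2.7, 14.4 and 16 against 184, 51.7 and 43.5 (log2 -2.93), with its highest value in the DMSO library rich in squamous markers. KRT13 fell as well (log2 -2.35), and the other 7 squamous markers tested did not pass; of the 9 tested, 4 fell without INC424 library 2, 5 without DMSO library 2 and 1 without DMSO library 3. With edgeR on the recovered reads 7 of the 9 fell, and 6 with a term for libraries run again. KRT13 did not pass without DMSO library 3 (adjusted p 0.0627), and neither KRT13 (adjusted p = 0.606) nor KRT6A (adjusted p = 0.4) passed in the 24-library fit. Over the other 18 libraries the squamous sum ran from 103 to 155211.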

How the data were processed

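RNA of SET2 cells was made into poly(A) libraries with RNase III fragmentation and sequenced on the Ion Proton, per the labels. The submitters' processing notes name BWA 0.7.5.1, HTSeq 0.5.3p3, DESeq 1.10.1 and hg19, without saying which did what. The authors deposited 1 table of normalised counts (a signal, counts divided by a factor for each library) of 25082 genes in 24 libraries. Divided by the smallest step of its column, 100% of values were whole within 0.01, which gave back the reads for edgeR and DESeq2. In 3 libraries, INC424 4 h library 3 among them, that step is close to 1, so the test shows nothing there.

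The filter kept 17405 genes that reached a normalised count of 10 in 3 or more of the 6 libraries, and log2(count + 1) was fitted with limma 3.58.1 in R 4.3.3 (4 residual degrees of freedom, spread moderated with a trend on level), two-sided, with Benjamini-Hochberg adjustment. edgeR 4.0.16 and DESeq2 1.42.0 were alternatives among 20 in all, and the scripts were tested on simulated data. The 24-library fit is the same model over all 8 groups. Same-numbered libraries did not deviate together (correlations -0.103, -0.0347 and -0.0721), so the numbers were not used as pairs.

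The comparison and the 36 gene lists (686 entries, 680 in the table) were chosen with earlier results of these data known. The text names genes by this rule: of called genes with a mean of at least 50 and no overlap, the 15 that rose most and the 15 that fell most, up to 5 called members of each list in each direction, or 2 of highest mean where none passes, and JAK1, JAK2, JAK3, TYK2, STAT3, STAT5A and STAT5B. Some genes that the rule names are not reported here. Members named beyond it, uncalled or marker genes among them, were picked after their values were seen. Promoters are from RefSeq, GRCh38.p14, and matched 10770 of the 17405 genes by symbol or synonym. Depth limits only the low genes: 10 normalised counts are about 10 reads.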

Additional observations from a re-analysis of the deposited data

How the results depend on the processing

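Of the 20 alternatives none turned the direction of a named gene that was called in either fit. Those that changed only the spread could not do so, since they keep the same log2 difference. Among them were the fits without trend, over all 8 groups and with the replicate block. Most named genes had also been picked for being called on these libraries. The spread used by the test mattered most. Without the trend of variance on level, 3430 genes were called, 1505 of them lower, and 55 named genes lost the call they had with it. With the spread taken from all 8 groups, 1790 were called, 1035 higher and 755 lower. There 161 list genes were called in place of 319, and 99 named genes lost the call they had in the fit of the 6 libraries. The fit over all 8 groups without CYT387 persistent library 2 called 3396, of which 1400 were lower. Leaving out 1 of the 6 libraries gave 3789 to 4793 calls, 2096 to 2714 higher and 1584 to 2154 lower, and 263 to 311 called list genes. Without DMSO library 1, rich in squamous markers, 4435 genes were called. The replicate block, whose numbers do not pair the libraries, gave 4326 calls, 2410 higher and 1916 lower, with 295 list genes, and 3 rather than 6 p53 targets lower. TMM scaling gave 2618 higher and 2600 lower, edgeR 2597 and 2585, DESeq2 2864 and 2536, and a term for libraries run again 5993 calls in all. RPL5, SMAD7 and BCL2L2 did not pass with TMM scaling. The cause of these differences was not tested. Genes of few reads, such as SPP1 and EGR3, have the widest errors.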

Other observations

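Other genes that moved with those above were picked after their values were seen, so their changes are descriptions. All 5 Yippee-like genes were higher with INC424: beside YPEL3 and YPEL4, YPEL2 was 409, 356 and 436 with INC424 and 65.1, 115 and 79.9 with DMSO (log2 2.23), YPEL1 changed by 1.67 and YPEL5 by 1.14. HBP1, a transcriptional repressor known as a FOXO target, was 883, 985 and 1062 against 277, 278 and 205 (log2 1.95), and BTG1, an antiproliferative gene, was 555, 563 and 754 against 213, 200.4 and 192 (log2 1.61). Naive cells held 339.8 ± 35.3 of YPEL2, 1271 ± 175 of HBP1 and 751 ± 151 of BTG1. The groups did not overlap in any of these genes. BNIP3P1, a near copy of BNIP3 that can share its reads, changed by 1.91.

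DUSP2, a phosphatase of ERK in blood cells, was 157, 165 and 139 with INC424 and 521, 761 and 765 with DMSO (log2 -2.12). SGK1, a kinase that shares targets with AKT, was 16.2, 17.1 and 19 against 76.5, 64.1 and 64.8 (log2 -1.91). Both were lower in every INC424 library than in any DMSO library. The epithelial genes EPCAM, at 11.7, 21.6 and 2.0 against 113, 32 and 34.8, and GJB2, at 2.7, 4.51 and 7.01 against 22, 23.8 and 19, were higher with DMSO. EPCAM was highest in the DMSO library rich in squamous markers and did not pass without DMSO library 1 (adjusted p 0.0589). GJB2 was alike in the 3 DMSO libraries. It was under 10 in every INC424 library, so it passed the filter only through the DMSO libraries. What part squamous RNA had in either was not tested.

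By RefSeq gene type, 1.81% of the 996 pseudogenes tested rose and 9.14% fell, while 20.0% of the 12698 protein-coding genes rose and 15.1% fell. Of 289 long noncoding RNAs 19.4% rose and 10.7% fell. Genes matched by symbol or 1 unambiguous synonym were counted.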
